A study of Homo sapiens with 4 samples.

Results

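The transcripts of 81 DNA repair genes were examined in K562 cells, a human cell line from chronic myelogenous leukaemia in blast crisis that carries the BCR-ABL1 fusion. Members were taken by gene name from the deposited table of 11213 genes. They were the names that start with FANC, XRCC, BRCA, ERCC, MSH or MLH, those that start with PARP or RAD and a digit, and a fixed set of further names such as ATM, CHEK1 and POLQ. There were 2 libraries from cells transduced with lentivirus carrying a hairpin against PHF8 (shPHF8, genotype PHF8 knockdown) and 2 from cells given a control hairpin (shControl, genotype WT). Every culture had received polybrene, and puromycin for selection. PHF8 removes methyl groups from lysines of histones H3 and H4, and the study addresses its role in transcription of the fusion gene. Whether the numbers 1 and 2 of the shPHF8 libraries mark cultures or hairpins is not settled by the labels, since the protocol names shPHF8-1 alone. Nothing says that libraries of a group came from separate cultures, so p-values measure only the spread between these libraries, which may be technical.

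Cells mend damaged DNA by several routes. Homologous recombination copies an intact sister chromatid after a double-strand break, and end joining seals the break directly. The Fanconi anaemia proteins unhook crosslinks between the strands, mismatch repair corrects copying errors, nucleotide excision removes bulky lesions, and base excision replaces single damaged bases. The checkpoint kinases ATM and ATR and their targets CHEK2 and CHEK1 hold the cell cycle while repair proceeds. Many recombination and crosslink repair genes are transcribed mainly around S phase under E2F transcription factors. BCR-ABL1 is known to alter double-strand break repair in leukaemia cells, and K562 cells lack functional p53.

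Values are given in TPM (a length-corrected share of all listed transcripts, scaled to one total per library), summed over the transcripts of a gene. A log2 fold change is the mean log2(TPM + 1) of shPHF8 less that of shControl libraries, given with its standard error (SE) from limma. That scale understates differences at low TPM. The knocked-down gene was at 6.06 and 6.42 TPM in the shPHF8 libraries, against 25.9 and 22.5 TPM in the shControl libraries, or 25.8% of the shControl mean (PHF8, log2 fold change -1.80 ± 0.16 SE, limma with Benjamini-Hochberg adjusted p = 0.0643). All 10 erythroid markers chosen for K562 cells were listed, and their summed level was 14294 and 13658 TPM in shPHF8 against 8989 and 9560 TPM in shControl libraries. Of 10 granulocyte and monocyte markers 4 were listed, at a sum of 82.5 and 77.9 TPM in shPHF8 against 141 and 159 TPM in shControl libraries, and the defining markers MPO, ELANE, CD14, CSF1R, CD163 and FCGR3B were not among the genes listed. Of 7 lymphocyte markers 2 were listed, at a sum of 15.6 and 11.0 TPM against 30.4 and 34.4 TPM, and of 6 stromal and endothelial markers 2 were listed, at 3.42 and 2.52 TPM against 9.88 and 13.0 TPM. Within these lists the genes differed in direction: GATA1 was at 311 and 307 TPM in shPHF8 against 339 and 343 TPM in shControl libraries while HBG1 was at 4833 and 4524 TPM against 2871 and 2960 TPM, and the stromal sum rested on COL1A2, at 1.79 and 1.65 TPM against 9.37 and 11.6 TPM. The part of these marker differences in the results below was not tested. In these bulk samples a change in the mix of cells and a change in RNA per cell cannot be told apart.

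DNA repair genes were transcribed at levels from near 0 to over 500 TPM. Their median over the 4 libraries was 37.4 TPM, against 28.3 TPM for all genes listed, and 8 of the 81 exceeded 200 TPM. The highest was XRCC6, the Ku70 subunit of the end-binding Ku dimer, with a mean of 520 TPM over the 4 libraries. It was followed by PARP1, the poly(ADP-ribose) polymerase that senses strand breaks, at 357 TPM, PRKDC, the DNA-dependent protein kinase that Ku recruits, at 317 TPM, and the cohesin subunit RAD21 at 302 TPM. The Ku80 gene XRCC5 was at 283 TPM, the lesion-escort protein RAD23B at 240 TPM and the damage-binding adaptor DDB1 at 203 TPM. At the other end 12 members were under 10 TPM. DDB2, which pairs with DDB1 at ultraviolet lesions and is a known p53 target, was at 1.11 and 0.435 TPM in shPHF8 and 1.93 and 0.429 TPM in shControl libraries. With a mean of 0.976 TPM it was the only member below the 1 TPM required for testing, so 80 were tested.

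No DNA repair gene passed limma with Benjamini-Hochberg adjustment over all 10972 genes tested at 0.05, and neither did any other gene. The smallest adjusted p among all genes was 0.0554. At an unadjusted limma p under 0.05, used here only to order the description, 12 of 80 members (15.0%) were higher in shPHF8 cells, where 9.90% of all genes tested were. At the same threshold 4 members (5.00%) were lower, where 12.1% of all genes were. Both shPHF8 libraries lay above both shControl libraries in 28 members (35.0%), against 26.0% of all genes, and below both in 11 members (13.8%), against 29.3% of all genes. The 2 groups overlapped in the other 41. The log2 fold change was positive in 54 members (67.5%), against 48.0% of all genes, with a median of 0.11 for members and -0.02 for all genes. The estimates were mostly small, but their precision was limited. In 39 members the log2 fold change was under 0.2 in size. In 64 of the 80 the 95% confidence interval lay within -1 and 1, which still allows changes of nearly 2-fold. It lay within -0.5 and 0.5 in 24 members. Shares of all genes are not given for these counts. Calls at the unadjusted threshold depended on single libraries, and most were lost in at least 1 of the fits that left out 1 library. All 12 higher and all 4 lower members kept the sign of their log2 fold change in each of those fits. Without shControl replicate 1 the members whose groups did not overlap numbered 47 above and 19 below the controls. They numbered 38 above and 25 below when shControl replicate 2 was left out, and 40 above and 18 below when shPHF8 replicate 1 was left out. Non-overlap is easier to meet with 1 library in a group, and shares of all genes are not given for these fits. These counts therefore cannot be set beside the 28 and 11 above. The members' median log2 fold change was 0.05 without shControl replicate 2.

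**Figure D1:**
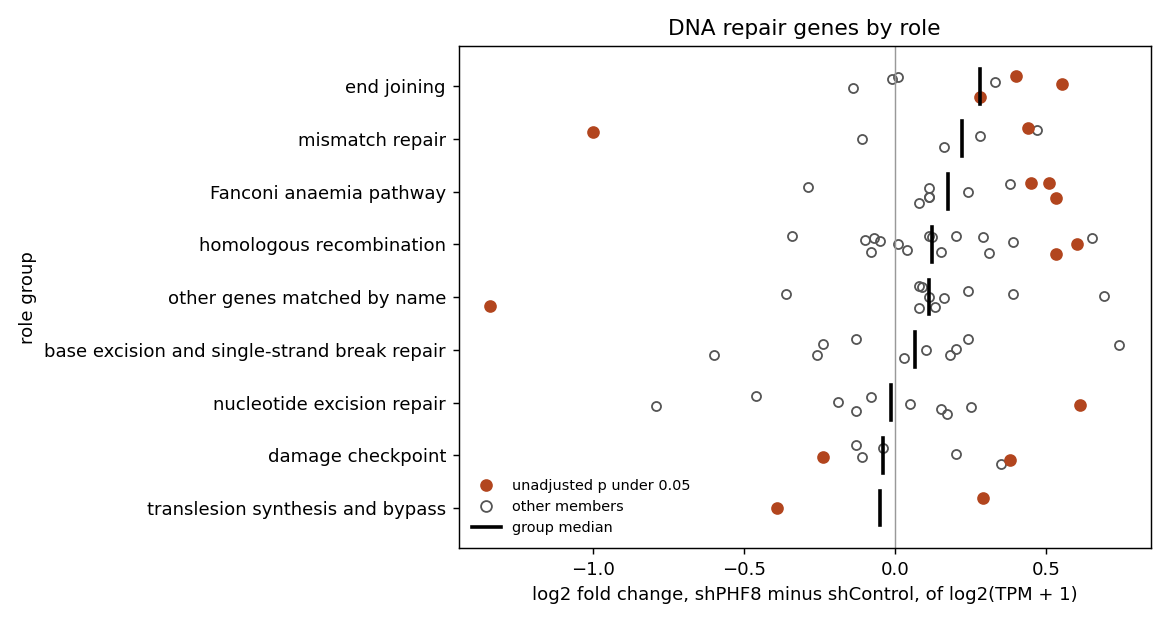
Each point is the log2 fold change (shPHF8 minus shControl, log2(TPM + 1) scale, x axis) of 1 of the 80 DNA repair genes tested, placed by role (y axis), with filled points at an unadjusted limma p under 0.05 and vertical bars at the group median. The medians run from 0.28 for end joining to -0.05 for translesion synthesis, and the filled points right of 0 number 12 against 4 left of it.

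The role groups were small and none was tested as a group, so their counts are descriptions to be read beside the 9.90% higher and 12.1% lower of all genes. Homologous recombination was represented by 17 genes, of which 2 (11.8%) were higher, near the share of all genes, and 0 were lower at the unadjusted threshold. The median log2 fold change was 0.12. Both shPHF8 libraries exceeded both controls in 7 genes (41.2%, against 26.0% of all genes). They were below both in 0, against 29.3% of all genes. XRCC2, which helps the recombination filament form, was at 102 and 93.5 TPM in shPHF8 against 59.2 and 76.4 TPM in shControl libraries. The groups did not overlap, although the controls differed by more than the knockdown libraries did. The log2 fold change of XRCC2 was 0.53 ± 0.16 (SE; limma, Benjamini-Hochberg adjusted p = 0.176).

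BRCA2, which mediates recombination at resected ends, lay just outside the unadjusted threshold, at 18.5 and 18.2 TPM in shPHF8 against 14.6 and 13.0 TPM in shControl libraries (log2 fold change 0.39 ± 0.14 SE, 95% confidence interval -0.00130 to 0.78; limma, Benjamini-Hochberg adjusted p = 0.228). BRCA1, a ubiquitin ligase that promotes end resection, was at 107 and 108 TPM in shPHF8 against 110 and 79.6 TPM in shControl libraries. Here the groups overlapped, and the log2 fold change of 0.20 ± 0.18 (SE) became -0.03 without shControl replicate 2. RAD51AP1, a recombination cofactor, had the highest log2 fold change of the recombination genes, 0.65 ± 0.26 (SE), from 44.5 and 49.1 TPM in shPHF8 and 37.3 and 23.2 TPM in shControl libraries. In the break-end complex MRE11A had a log2 fold change of 0.04 ± 0.12 (SE). NBN was at 82.6 and 76.7 TPM in shPHF8 against 70.9 and 76.2 TPM in shControl libraries, which did not overlap by a narrow margin (0.11 ± 0.10 SE). RAD50, the ATPase of that complex, was at 75.3 and 43.8 TPM in shPHF8 against 79.0 and 41.2 TPM in shControl libraries, so it split by library number and not by group, and its 95% interval on the log2 scale ran from -1.15 to 1.17. XRCC3, which also acts in recombination, was at 24.5 and 17 TPM in shPHF8 against 24.4 and 28.0 TPM in shControl libraries, and its log2 fold change of -0.34 ± 0.22 (SE) was the lowest of the 17.

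Of 10 Fanconi anaemia genes 9 had a positive log2 fold change, as did 48.0% of all genes. At the unadjusted threshold 3 (30.0%) were higher, against 9.90% of all genes, and 0 were lower, against 12.1%. Their median was 0.18, against -0.02 for all genes, and in 7 of the 10 both shPHF8 libraries exceeded both controls, as in 26.0% of all genes. FANCA, a scaffold of the core ubiquitin ligase complex, was at 50.7 and 49.5 TPM in shPHF8 against 38.2 and 34.8 TPM in shControl libraries (log2 fold change 0.45 ± 0.11 SE; limma, Benjamini-Hochberg adjusted p = 0.137). FANCB, part of the catalytic module of that complex, was at 27.1 and 28.3 TPM in shPHF8 against 19.9 and 18.5 TPM in shControl libraries (log2 fold change 0.51 ± 0.12 SE; limma, Benjamini-Hochberg adjusted p = 0.139). FANCM, the translocase that anchors the complex to stalled forks, was at 13.3 and 13.5 TPM in shPHF8 against 9.03 and 8.94 TPM in shControl libraries (log2 fold change 0.53 ± 0.15 SE; limma, Benjamini-Hochberg adjusted p = 0.168). In all 3 genes the summed TPM of the groups did not overlap. The call of FANCM was lost whichever 1 of the 4 libraries was left out, and its log2 fold change was -1.31 when its most abundant transcript stood for the sum.

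FANCI, which the core complex ubiquitinates together with FANCD2, was at 160 and 189 TPM in shPHF8 against 146 and 122 TPM in shControl libraries and lay just outside the unadjusted threshold (log2 fold change 0.38 ± 0.14 SE; limma, Benjamini-Hochberg adjusted p = 0.229). Its partner FANCD2 overlapped between groups, at 74.3 and 84.0 TPM in shPHF8 against 90.1 and 59.3 TPM in shControl libraries. FANCL, the ubiquitin ligase subunit, had a log2 fold change of 0.11 ± 0.09 (SE). FANCG was the only member of the pathway with a negative value, at 20.7 and 23.7 TPM in shPHF8 against 26.5 and 27.9 TPM in shControl libraries (log2 fold change -0.29 ± 0.13 SE).

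Promoter sequence was read for the members higher at the unadjusted threshold, from RefSeq windows of 300 bases on GRCh38.p14 that run from 250 bases before a gene's start to 50 bases after it. The words TTTCCCGC, TTTCGCGC, TTTGCCGC and TTTGGCGC, forms of the E2F site, were searched on both strands. Of the 12 genes higher at the unadjusted threshold 8 were in the promoter table, and PRKDC was among those that were not. A word was found in 2 of the 8, FANCA and XRCC2, in 9 of 68 members (13.2%), in 596 of 8517 genes tested (7.0%) and in 3.31% of all windows. The other members with a word were FANCC, FANCD2, MSH3, MSH6, PARP12, UNG and XRCC6. The promoters of FANCA and XRCC2 are shown because they carry a word. That of FANCB is shown as an example of the rest of the 8, which hold none. The part of E2F factors in the differences between groups was not tested. They lie at chr16:89816598-89816897 (FANCA), chr7:152676092-152676391 (XRCC2) and chrX:14873020-14873319 (FANCB), all on the minus strand, and are written 5′ to 3′ along the gene with the word in capitals.
FANCA promoter: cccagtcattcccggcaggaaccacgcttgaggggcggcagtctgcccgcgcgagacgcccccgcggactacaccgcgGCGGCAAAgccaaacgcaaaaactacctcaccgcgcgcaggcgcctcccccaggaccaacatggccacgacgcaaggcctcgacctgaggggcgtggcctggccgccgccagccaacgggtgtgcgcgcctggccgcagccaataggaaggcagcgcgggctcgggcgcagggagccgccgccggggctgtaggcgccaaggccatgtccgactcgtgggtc
XRCC2 promoter: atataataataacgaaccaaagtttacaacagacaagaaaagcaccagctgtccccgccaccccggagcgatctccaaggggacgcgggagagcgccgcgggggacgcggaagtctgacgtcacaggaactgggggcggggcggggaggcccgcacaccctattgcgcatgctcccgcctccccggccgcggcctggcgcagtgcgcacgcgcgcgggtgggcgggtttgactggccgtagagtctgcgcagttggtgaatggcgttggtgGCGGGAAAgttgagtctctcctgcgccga
FANCB promoter: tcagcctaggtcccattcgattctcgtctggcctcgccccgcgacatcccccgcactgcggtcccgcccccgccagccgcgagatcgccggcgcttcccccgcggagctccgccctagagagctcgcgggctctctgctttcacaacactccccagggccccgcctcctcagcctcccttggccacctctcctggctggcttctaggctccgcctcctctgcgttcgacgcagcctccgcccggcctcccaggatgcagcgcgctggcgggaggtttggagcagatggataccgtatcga
In FANCA the capitals begin 172 bases before the start, and in XRCC2 at base 22 after it, in both cases as the reverse complement of a listed word. The match describes the letters of these windows and is no measure of binding. The transcripts summed for FANCA did not differ alike. FANCA-001 had a log2 fold change of 0.09 ± 0.17 (SE), and FANCA-028 one of 2.06 ± 0.33 (SE). Their annotated starts lie 73752 bases apart, so the window of 300 bases shown cannot hold both. FANCA-002, FANCA-003 and FANCA-006 start 0, 11 and 11 bases from FANCA-001. Which of the FANCA starts lies in the window was not examined, so its word cannot be assigned to the difference in the FANCA sum.

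**Figure D2:**
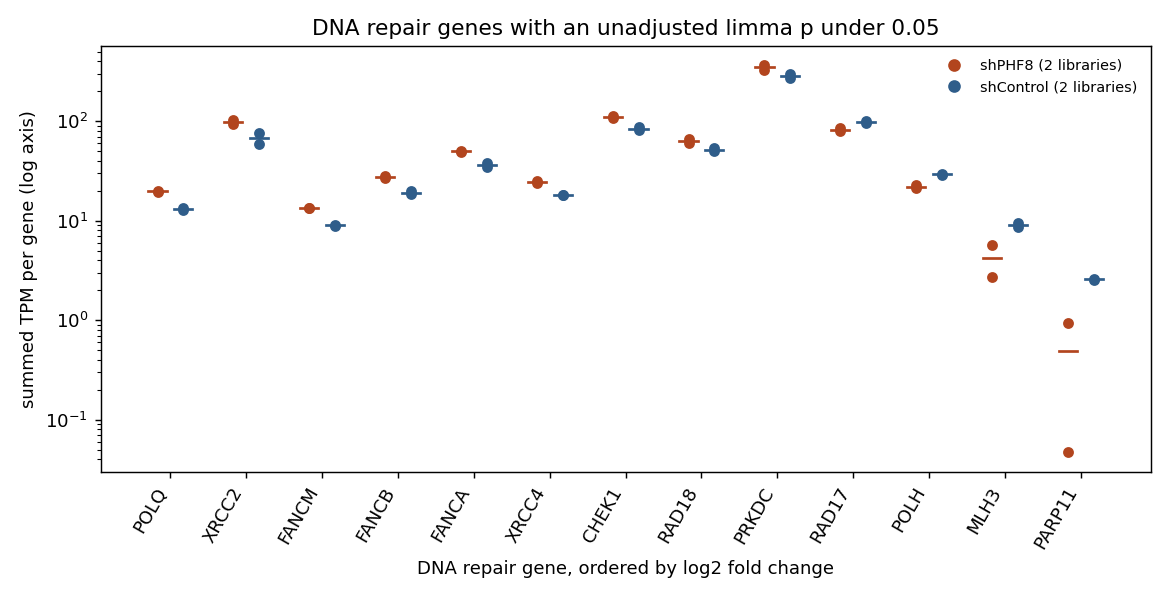
Summed TPM (log axis) of 13 of the 16 DNA repair genes with an unadjusted limma p under 0.05, with 1 point per library, shPHF8 left of shControl, and a bar at the mean of 2 libraries. The groups do not overlap in any of the 13, from POLQ (log2 fold change 0.55) on the left to PARP11 (-1.34) on the right.

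Among the 7 end joining genes 3 (42.9%) were higher, against 9.90% of all genes, and 0 lower, against 12.1%, at the unadjusted threshold. Their median log2 fold change was 0.28, against -0.02 for all genes. POLQ, the polymerase of microhomology-mediated joining, was at 19.6 and 20.0 TPM in shPHF8 against 13.6 and 12.8 TPM in shControl libraries (log2 fold change 0.55 ± 0.13 SE; limma, Benjamini-Hochberg adjusted p = 0.141). XRCC4, the partner of DNA ligase IV, was at 23.8 and 24.9 TPM in shPHF8 against 18.0 and 18.3 TPM in shControl libraries (log2 fold change 0.40 ± 0.12 SE; limma, Benjamini-Hochberg adjusted p = 0.184). PRKDC was at 330 and 366 TPM in shPHF8 against 302 and 272 TPM in shControl libraries (log2 fold change 0.28 ± 0.09 SE; limma, Benjamini-Hochberg adjusted p = 0.206). The groups did not overlap in any of these. The call of XRCC4 was lost whichever 1 of the 4 libraries was left out, and its log2 fold change was -0.33 when its most abundant transcript stood for the sum. The abundant Ku subunits differed little. XRCC6 was at 517 and 528 TPM in shPHF8 against 528 and 509 TPM in shControl libraries, with a 95% confidence interval of its log2 fold change from -0.14 to 0.16, and XRCC5 was at 282 and 282 TPM against 298 and 270 TPM, with an interval from -0.22 to 0.20. TP53BP1, the chromatin reader that shields ends from resection, was at 46.6 and 41.9 TPM in shPHF8 against 39.5 and 31.1 TPM in shControl libraries, a log2 fold change of 0.33 ± 0.16 (SE). The ligase LIG4 had a value of -0.14 ± 0.12 (SE) on the same scale.

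In mismatch repair 1 of 6 genes (16.7%) was higher and 1 (16.7%) lower at the unadjusted threshold, against 9.90% and 12.1% of all genes. MSH6, which senses base mismatches, was at 80.5 and 85.9 TPM in shPHF8 against 49.0 and 72.3 TPM in shControl libraries, a log2 fold change of 0.47 ± 0.21 (SE). MSH3, which senses larger loops, had 0.16 ± 0.12 (SE) on that scale. MLH3, which acts mainly in meiosis, was lower, at 2.74 and 5.69 TPM in shPHF8 against 9.42 and 8.67 TPM in shControl libraries (log2 fold change -1.0 ± 0.34 SE; limma, Benjamini-Hochberg adjusted p = 0.212).

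Among the checkpoint genes CHEK1, the kinase downstream of ATR, was at 108 and 113 TPM in shPHF8 against 82.3 and 86.9 TPM in shControl libraries. Its groups did not overlap, and the log2 fold change was 0.38 ± 0.08 (SE), 95% interval 0.15 to 0.61 (limma, Benjamini-Hochberg adjusted p = 0.126). RAD17, which loads the checkpoint clamp, was at 84.9 and 80.0 TPM in shPHF8 against 95.3 and 99.9 TPM in shControl libraries (log2 fold change -0.24 ± 0.09 SE; limma, Benjamini-Hochberg adjusted p = 0.222). The call of RAD17 was lost whichever library was left out. ATM was at 39.0 and 42.9 TPM in shPHF8 against 34.9 and 29 TPM in shControl libraries, a log2 fold change of 0.35 ± 0.14 (SE). ATR was at 31.2 and 30.4 TPM in shPHF8 against 30.2 and 37.8 TPM in shControl libraries. CHEK2, the kinase downstream of ATM, was at 27.1 and 31.7 TPM in shPHF8 against 32.7 and 30.7 TPM in shControl libraries. Neither ATR nor CHEK2 separated the groups. The median of the 7 checkpoint genes was -0.04.

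Excision repair genes were spread to both sides. Of 10 nucleotide excision genes tested, 5 had a positive and 5 a negative log2 fold change, with a median of -0.02. At the unadjusted threshold 1 (10.0%) was higher and 0 were lower, against 9.90% and 12.1% of all genes. RAD23B was at 245 and 260 TPM in shPHF8 against 224 and 232 TPM in shControl libraries (0.15 ± 0.07 SE on the log2 scale), and DDB1 at 207 and 222 TPM against 196 and 186 TPM (0.17 ± 0.07 SE). Lower values were held by ERCC4, the XPF endonuclease, at 6.02 and 5.57 TPM in shPHF8 against 7.77 and 9.0 TPM in shControl libraries, and by ERCC2, the XPD helicase, at 34.5 and 35.3 TPM against 41.2 and 38.6 TPM. The XPB helicase ERCC3 was at 7.07 and 4.29 TPM in shPHF8 against 6.70 and 15.6 TPM in shControl libraries, with overlapping groups.

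In base excision and single-strand break repair 0 of 10 genes reached the unadjusted threshold in either direction, against 9.90% higher and 12.1% lower of all genes. PARP1 was at 337 and 345 TPM in shPHF8 against 363 and 382 TPM in shControl libraries, which gave -0.13 ± 0.06 (SE) on the log2 scale, 95% interval -0.30 to 0.04. Its relative PARP2 was at 48.5 and 55.4 TPM in shPHF8 against 43.7 and 43.7 TPM in shControl libraries (0.24 ± 0.11 SE). APEX1, the main abasic site endonuclease, was at 52.4 and 48.5 TPM in shPHF8 against 52.4 and 70.0 TPM in shControl libraries. LIG3, the ligase that works with XRCC1, was at 27.7 and 32.5 TPM in shPHF8 against 34.7 and 36.7 TPM in shControl libraries. The groups of LIG3 and PARP1 did not overlap, and those of APEX1 did. UNG, the uracil glycosylase, was at 19.4 and 63.4 TPM in shPHF8 against 33.7 and 86.0 TPM in shControl libraries. As with RAD50, the split followed the library number, here with number 2 higher, and the log2 fold change of -0.60 ± 0.74 (SE) had an interval from -2.63 to 1.43.

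Damage bypass was covered by a pair of genes with opposite signs. RAD18, the ligase that ubiquitinates PCNA at stalled forks, was at 60.9 and 66.2 TPM in shPHF8 against 53.6 and 50.1 TPM in shControl libraries (log2 fold change 0.29 ± 0.10 SE; limma, Benjamini-Hochberg adjusted p = 0.219). POLH, the polymerase that copies past ultraviolet lesions, was at 21.4 and 22.7 TPM in shPHF8 against 28.8 and 29.7 TPM in shControl libraries (log2 fold change -0.39 ± 0.12 SE; limma, Benjamini-Hochberg adjusted p = 0.183). The calls of RAD18 and POLH were lost whichever library was left out. A further 11 genes shared the name patterns and were not placed in a repair route here, among them the PARP family members that act in antiviral or other ADP-ribosylation. Of these PARP11 alone reached the threshold, at 0.0472 and 0.932 TPM in shPHF8 against 2.56 and 2.63 TPM in shControl libraries (log2 fold change -1.34 ± 0.42 SE; limma, Benjamini-Hochberg adjusted p = 0.190). RAD21 was at 309 and 328 TPM in shPHF8 against 313 and 257 TPM in shControl libraries.

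Spread between libraries of a group differed widely among members. A gap above 2-fold in TPM + 1 separated the 2 shPHF8 libraries in 2 of 80 members (2.50%), against 5.48% of all genes. Such a gap separated the 2 shControl libraries in 4 members (5.00%), against 5.93% of all genes. UNG was the only member in both sets. Besides it these were PARP12 among shPHF8 libraries and ERCC3, PARP3 and RAD54L2 among shControl libraries. PARP3 was at 4.15 TPM in 1 control library and listed at 0 in the other.

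**Figure D3:**
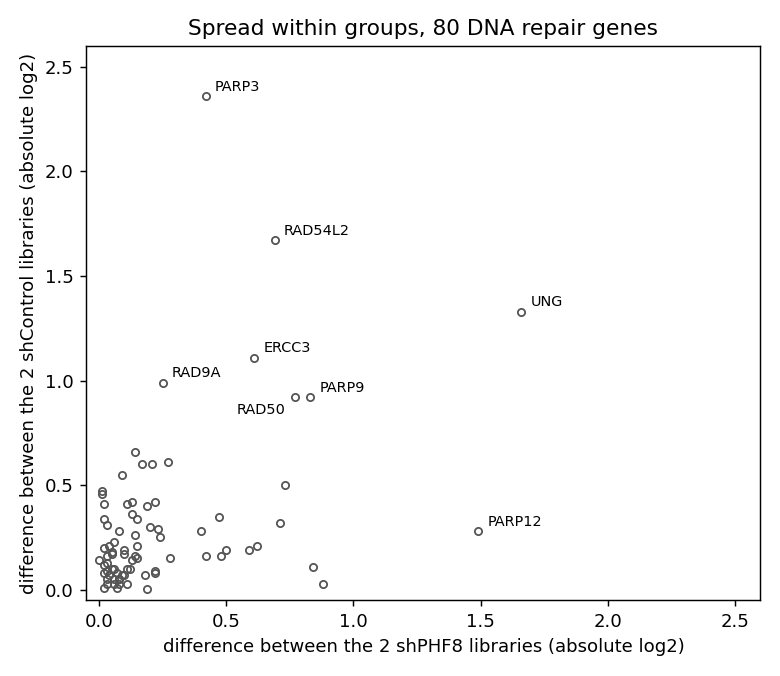
Absolute log2 difference between the 2 shPHF8 libraries (x axis) and between the 2 shControl libraries (y axis) for each of the 80 DNA repair genes tested, with names where either exceeds 0.9. UNG stands out at 1.66 and 1.33, and PARP3 at 0.42 and 2.36.

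The table lists 314 transcripts for the 81 genes, with a median of 3 per gene, 13 genes with 1 and BRCA1 with 15. All 314 were found by identifier in GENCODE 29 and all are protein-coding there. Of the 295 with a mean of at least 1 TPM, 17 (5.76%) were higher at an unadjusted limma p under 0.05, against 4.91% of all 30266 transcripts tested, and 7 (2.37%) were lower, against 5.38%. With Benjamini-Hochberg adjustment over all transcripts none of the 295 passed, and 1 of 30266 (0.00330%) did. The median log2 fold change was 0.08 for member transcripts and -0.01 for all transcripts, of which 49.4% were positive. The lower count of 7 moved when 1 library was left out. Both shPHF8 libraries lay above both controls in 65 member transcripts (22%), against 21.0% of all, and below in 44 (14.9%), against 22.2%.

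In some genes the sum differed less between groups than its division among transcripts. XRCC4-002 was at 9.91 and 11.0 TPM in shPHF8 against 0.309 and 0.412 TPM in shControl libraries, or 41.6% and 44.0% of the gene against 1.72% and 2.25% (log2 fold change 3.07 ± 0.30 SE; limma, Benjamini-Hochberg adjusted p = 0.154). XRCC4-003 was at 13.9 and 13.9 TPM in shPHF8 against 17.7 and 17.9 TPM in shControl libraries. Both encode 336 codons in GENCODE 29 and share 6 of 8 exons, with starts 66 bases and ends 76 bases apart. RAD51AP1-002 was at 21.8 and 21.1 TPM in shPHF8 against 8.01 and 5.51 TPM in shControl libraries, and the gene's other 3 transcripts overlapped between groups. FANCA-028 was at 10.8 and 8.80 TPM in shPHF8 against 2.01 and 1.24 TPM in shControl libraries. FANCA-001 was at 21.5 and 23.4 TPM in shPHF8 against 22.2 and 19.8 TPM in shControl libraries. FANCA-028 separated the groups, and FANCA-001 did not. In GENCODE 29 FANCA-028 has 6 exons and 732 bases, of which 719 are coding. That is not a whole number of codons, so its annotation may be incomplete, and a separate short protein is not shown. In RAD17 the transcript RAD17-201 was higher, at 23.6 and 32.1 TPM in shPHF8 against 10.7 and 8.37 TPM in shControl libraries, although the gene's sum was lower. RAD17-006 was listed at 0 in both shPHF8 libraries and at 4.21 and 3.51 TPM in shControl libraries, and RAD17-004 at 0 in both shPHF8 libraries and at 4.22 and 1.39 TPM.

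ERCC6L-001 was at 0.149 and 0 TPM in shPHF8 against 3.61 and 5.01 TPM in shControl libraries, and ERCC6L-002 at 18.1 and 20.1 TPM against 13.5 and 14.0 TPM. ERCC6L is a mitotic helicase, and the log2 fold change of its sum was near 0 (0.08 ± 0.14 SE). RAD9A-007 was listed at 0 in both shPHF8 libraries and at 2.25 and 2.58 TPM in shControl libraries, while RAD9A-001 held 98.9% and 96.3% of the gene in shPHF8 and 66.6% and 82.4% in shControl libraries. RAD9A is a subunit of the checkpoint clamp. How reads were divided among overlapping transcripts is not stated in the labels or file headers, and its part in these shifts was not tested.

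**Figure D4:**
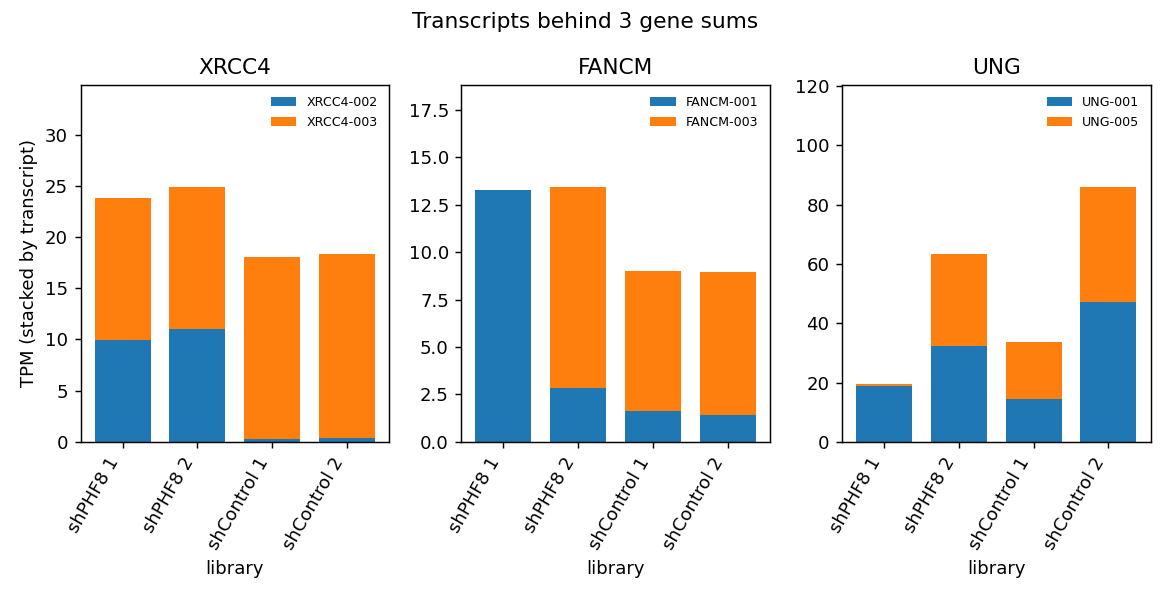
Stacked TPM of the listed transcripts (y axis) in each library (x axis, shPHF8 left of shControl) for XRCC4, FANCM and UNG. XRCC4-002 fills 41.6% and 44.0% of the shPHF8 bars and 1.72% and 2.25% of the shControl bars, whereas the FANCM transcripts differ between the 2 shPHF8 libraries and UNG differs by library number.

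Replacing each gene's sum by its most abundant transcript changed several of the values above, an alternative added after the data were seen. Under it the log2 fold change turned to -1.31 for FANCM and to -0.33 for XRCC4, and the 12 higher members became 8, of which 5 were among the 12. Exons of 39 members overlap exons of a gene on the other strand in GENCODE 29, among them FANCA with ZNF276. Exons of 14 overlap a gene on the same strand, among them CHEK1 with STT3A. Strandedness of the libraries is not stated, so such reads cannot be told apart. For 12 members, among them CHEK2, RAD17, PARP1 and XRCC6, pseudogenes of the same name exist and values are uncertain.

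The rest of the repair network was read from lists of 129 other genes, of which 126 were in the table and tested. Of these 15 (11.9%) were higher and 11 (8.73%) lower at the unadjusted threshold, near the 9.90% and 12.1% of all genes. Their median log2 fold change was 0.03, against -0.02 for all genes, and none passed limma's test after adjustment. None of the lists below was tested as a group. The counts of 15 higher and 11 lower moved when 1 library was left out. Of 13 further genes used in mismatch repair and DNA synthesis, 5 (38.5%) were higher and 0 lower, against 9.90% and 12.1% of all genes. These included POLD3, a subunit of the replicative polymerase delta, at 36.1 and 35.9 TPM in shPHF8 against 23.1 and 20.1 TPM in shControl libraries, and the clamp loader subunits RFC2, at 103 and 102 TPM against 75.5 and 64.7 TPM, and RFC1, at 97.9 and 106 TPM against 77.6 and 73.9 TPM. Their log2 fold changes were 0.71 ± 0.13, 0.55 ± 0.11 and 0.43 ± 0.09 (SE; limma, Benjamini-Hochberg adjusted p = 0.103, 0.111 and 0.121).

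Of 25 further checkpoint and bypass genes 6 (24.0%) were higher and 1 (4.0%) lower, against 9.90% and 12.1% of all genes. CLSPN, the adaptor through which ATR activates CHEK1, was at 103 and 110 TPM in shPHF8 against 77.4 and 80.0 TPM in shControl libraries (log2 fold change 0.42 ± 0.09 SE; limma, Benjamini-Hochberg adjusted p = 0.111). CDKN1A, the p21 inhibitor of cyclin-dependent kinases, was at 30.8 and 32.0 TPM in shPHF8 against 19.7 and 17.7 TPM in shControl libraries (0.72 ± 0.13 SE; limma, Benjamini-Hochberg adjusted p = 0.103). Of 16 further nucleotide excision genes 0 were higher and 3 (18.8%, against 12.1% of all genes) lower, including CDK7, a kinase of the TFIIH complex, at 95.7 and 66.3 TPM in shPHF8 against 151 and 124 TPM in shControl libraries. Of 14 further end joining and break-signalling genes 2 (14.3%) were higher and 4 (28.6%) lower, against 9.90% and 12.1% of all genes. Those that were lower included RNF168, a ubiquitin ligase of broken chromatin, at 34.1 and 37.3 TPM in shPHF8 against 46.5 and 46.6 TPM in shControl libraries, and MAD2L2, a shieldin subunit, at 113 and 100 TPM against 152 and 134 TPM.

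The gene with the lowest log2 fold change of the whole network was FAM175A, which encodes Abraxas, the scaffold of a BRCA1-containing complex at breaks. It was at 13.9 and 21.5 TPM in shPHF8 against 60.8 and 61.2 TPM in shControl libraries, or 29.1% of the shControl mean (log2 fold change -1.76 ± 0.23 SE, 95% confidence interval -2.39 to -1.13; limma, Benjamini-Hochberg adjusted p = 0.0741). It was 1 of 41 further recombination and crosslink genes, of which 1 (2.44%) was higher and 1 (2.44%) lower, against 9.90% and 12.1% of all genes. TDP1, which frees topoisomerase I trapped on DNA, was at 21.1 and 21.0 TPM in shPHF8 against 37.4 and 34.5 TPM in shControl libraries (log2 fold change -0.74 ± 0.12 SE; limma, Benjamini-Hochberg adjusted p = 0.0906), and of 17 further base excision genes 1 (5.88%) was higher and 2 (11.8%) were lower, against the same 9.90% and 12.1%.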

How the data were processed

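RNA of 2 shPHF8 and 2 shControl libraries of K562 cells was analysed. The authors deposited a single table of 32551 transcripts with a TPM column for every library, per the file headers, and each column sums to 1000000. A second set of 4 deposited columns without a unit was treated as signal. In each library TPM were a fixed multiple of this signal (3.1552 to 3.1872 over the libraries), and the signal was not used. HISAT2 2.0.4, StringTie 1.2.3 and the build hg19 are named in the submitters' processing notes. What each tool did, the annotation and the strandedness are not stated. TPM carry no read numbers, so depth is unknown, and precision rests on the spread between libraries.

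TPM were summed per gene name. Genes averaging 1 TPM or more (10972) were tested as log2(TPM + 1) with limma 3.58.1 in R 4.3.3 (empirical Bayes with trend, two-sided, 2 residual degrees of freedom, prior 2.16), adjusted by Benjamini-Hochberg over all genes at 0.05. Transcripts were tested likewise. A permutation of 2 libraries against 2 cannot go below an exact two-sided p of 0.333 and was not used. The fit was tested on simulated data. After adjustment it called 28.1% of genes with a simulated log2 change of 1, 54.0% at 2 and 72.4% at 3. A gene that was not called may therefore still differ. Changes smaller than 1 were not simulated. The members higher at the unadjusted threshold had log2 fold changes of 0.28 to 0.61, so the share called at such sizes is not known.

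Members and lists were chosen with earlier results of these data known. Named were PHF8, the 12 members with the smallest p in each direction, 15 core genes, the most abundant member of each role, and 5 other pathway genes and 5 transcripts in each direction; other members named complete a pair or complex and were chosen after their values were seen. Some members that this rule names are not reported here. Alternatives were a pseudocount of 0.1, a minimum of 5 TPM or none, median-of-ratios scaling, quantile normalization, no trend, a replicate block and leaving out each library. Python 3.11.15, pandas 2.3.3 and matplotlib 3.10.9 made tables and figures. RefSeq promoters (GRCh38.p14) and GENCODE 29 were matched by symbol and identifier, and listed genes that the table gives under an older symbol by gene identifier. Coordinates are on GRCh38.p14, not the build of the files.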

Additional observations from a re-analysis of the deposited data

How the results depend on the processing

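Of 57 named genes and transcripts, 47 kept 1 sign under every alternative. Without 1 library each, the log2 fold change ran from -0.29 to 0.03 for ATR, from -0.03 to 0.43 for BRCA1, from -0.22 to 0.00161 for CHEK2, from -0.08 to 0.06 for XRCC5 and from -0.01 to 0.04 for XRCC6 (-0.00240 without shPHF8 replicate 2). Median-of-ratios scaling gave 0.01 for XRCC5. With the leading transcript only, an alternative added after seeing the data, log2 fold changes turned for ATM (-0.34), CHEK2 (0.20), ERCC2 (0.05), FANCM (-1.31), TP53BP1 (-0.14), XRCC4 (-0.33) and XRCC5 (0.02). It also called 1 member higher after adjustment and 1 lower at the unadjusted threshold.

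Quantile normalization called 17 genes higher and 20 lower over the whole table after adjustment, none of them a member, and left 2 members lower at the unadjusted threshold. A minimum of 5 TPM left 2 lower member transcripts. The numbers 1 and 2 share no stated origin, and deviations of same-numbered libraries had a correlation of -0.0289; with the replicate block 8 members were higher and 2 lower at the unadjusted threshold, with 11 higher and 3 lower transcripts. Without 1 library each, members higher ran from 2 to 16 and lower from 0 to 2, genes higher over the whole table from 592 to 1118, other pathway genes higher from 6 to 19 and lower from 3 to 7, member transcripts lower from 11 to 13, members without overlap from 35 to 47 higher and 16 to 25 lower, and the members' median from 0.05 to 0.16. The cause of these moves was not tested, beyond the smaller number of samples. Non-overlap is easier to meet with 1 library in a group, so those counts are not comparable with the counts from all libraries. Shares of all genes or transcripts are not given for the other counts without 1 library, so those counts are no result about the members. Depth is unknown, so the counting error, which is greatest at low TPM such as those of PARP11 and DDB2, could not be estimated.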

Other observations

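POLK, a bypass polymerase chosen after its values were seen, had the highest log2 fold change among the other repair genes, with 24.6 and 13.2 TPM in shPHF8 against 5.92 and 4.02 TPM in shControl libraries (1.70 ± 0.37 SE; limma, Benjamini-Hochberg adjusted p = 0.122).

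In some members the division of TPM among transcripts differed between libraries of 1 group. FANCM-001 was at 13.3 and 2.84 TPM in shPHF8 against 1.62 and 1.41 TPM in shControl libraries, and FANCM-003 was at 0 and 10.6 TPM against 7.41 and 7.53 TPM. TP53BP1-014 was at 29.4 and 2.00 TPM in shPHF8 against 0 and 3.80 TPM in shControl libraries, and TP53BP1-004 at 0 and 16.8 TPM against 24.9 and 1.91 TPM.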
